A study of Mus musculus with 2 samples.

Results

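Splicing factor genes and the genes of heterogeneous nuclear ribonucleoproteins (hnRNPs) were followed in MIN6 cells, a mouse insulinoma line used as a beta cell model. Members were taken by gene name alone. The symbol had to begin with Hnrnp, Snrp or U2af, or with Srsf, Sf3a, Sf3b, Prpf or Rbm followed by a number. Of 111 features with such a name among 30868 listed, 103 were kept and 8 were left out, namely the imprinted gene Snrpn, the antisense gene Rbm3os and 6 pseudogenes. The comparison is of 2 libraries. One is of cells labelled normal, and the other, called the treated library here, carries the label of high glucose with palmitate. Both sample records share a treatment text with glucose at 33.3 mmol/l, palmitate at 0.4 mmol/l and bovine serum albumin at 0.5%, so the content of the normal medium, palmitate included, is not known from it. Both cultures were grown in medium with 15% fetal bovine serum, and no source used here gives the duration of treatment. With 1 library per group there is no replicate check and no p-value, and every difference below compares these libraries and not the conditions.

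Splicing removes introns from new transcripts and joins the exons. The spliceosome that does so is built from small nuclear ribonucleoproteins (snRNPs), each a small nuclear RNA bound by a ring of Sm proteins and by particle-specific proteins. SR proteins, which carry a domain rich in arginine and serine, mostly promote the use of nearby exons, whereas many hnRNPs act against it, and the balance between them helps decide which exons a cell keeps. Many of these proteins also control their own transcripts through exons that send the RNA to decay. The deposited table holds 1 value per gene, so exon inclusion and such isoforms were not measured, and a level given here is that of all exons of a gene together.

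Levels are RPKM, reads scaled by feature length and by the total reads of the library, as deposited. Of the 103 members, 99 had a mean of at least 1 RPKM, and the other 4 had few reads or a long transcript. Rbm20, which regulates splicing in heart muscle, stood at 0.991 and 0.963 RPKM in the normal and treated libraries. The others were Rbm11 with 30 and 32 reads, Srsf12 with 42 and 46, and the intronless copy Rbm8a2 with 16 and 28. The libraries held 44149406 and 43727919 reads, and a typical member had 11130 of them in both together (median), against 1950 for the 13947 features of at least 1 RPKM. All 10 beta cell markers checked were above 1 RPKM in the normal library, and 9 of them were lower in the treated library. The level of Ins2, the main insulin gene, was 1197 and 725.4 RPKM. In bulk RNA, fewer cells of a type and less RNA per cell cannot be told apart. Markers of other tissues were low. Those of acinar, endothelial and fibroblast cells summed to at most 0.426 RPKM in either library, with the acinar genes Prss1, Cpa1, Amy2a5 and Ptf1a without a value. Immune markers summed to 0.985 and 2.10 RPKM, islet hormone and factor genes of other endocrine cells to 15.0 and 14.7 RPKM, while the ductal marker Krt7 stood at 16.1 and 17.95 RPKM with Krt19 at 0 in both.

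The splicing factor genes as a group were at close to the same level in both libraries. Together they took 3.34% of the reads in each, and their summed level was 6209 RPKM in normal and 6147 RPKM in treated cells, a ratio of 0.990. The ratio of treated to normal RPKM lay within 10% of 1 for 79 of the 99 members, against 55.7% of all features of at least 1 RPKM, 63.6% of features of similar level and 69.7% of features with similar read numbers. On the scale of log2 of RPKM plus 0.5, the members' median difference was 0.0023 and the range from the 5th to the 95th percentile was -0.21 to 0.15. Over all features the median was 0.0028 and that range -0.36 to 0.35. Of the members 50 were above 0, against 50.7% of all features. A difference of 1.2-fold on this scale was passed by 3 of the 99 members, 1 higher and 2 lower. Of all features 17.5% passed it, 8.68% higher and 8.84% lower, as did 12.4% of those of similar level and 8.93% of those with similar read numbers. The members that passed were Snrpf and Hnrnpd, both lower in the treated library, and Snrpert, a copy of Snrpe of 279 bases with 18 and 30 reads. The comparison with features of similar read numbers was chosen after seeing the data. Of the 49 members within that range of read numbers, 1 passed 1.2-fold and 42 lay within 10% of 1. No test of these shares against the background was made.

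**Figure D1:**
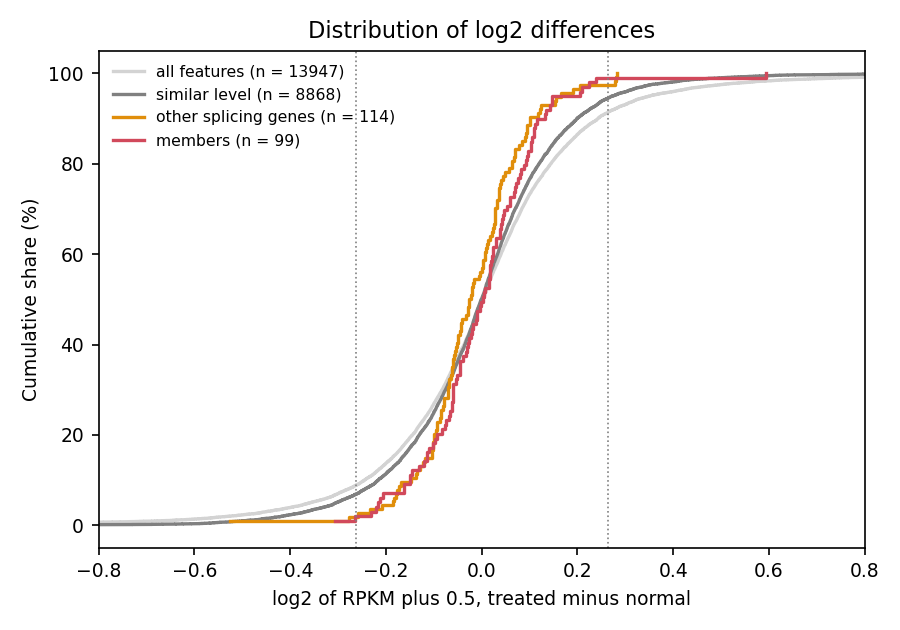
Cumulative share of genes (percent) against the difference of log2 of RPKM plus 0.5, treated minus normal, for 99 members, 114 other splicing genes, 8868 features of similar level and all 13947 features of at least 1 RPKM. Dotted lines mark 1.2-fold. The 2 lines of splicing genes are steeper than those of the other features, with 3 members and 5 other splicing genes outside the dotted lines.

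Counting error alone was small enough at this depth to separate many ratios from 1. An exact 95% interval from the read counts lay above 1 for 27 members and below 1 for 32, while it included 1 for 40. Over all features of at least 1 RPKM such intervals lay above 1 for 22% and below 1 for 22.3%, and among those with similar read numbers for 29.7% and 32.7%, so the members' counts were near this background. Read numbers were even for 77.1% and 77.8% of features with 1 to 10 reads, and no source used here says whether both mates of a read pair were counted. With each 2 reads counted as 1, the intervals lay above 1 for 20 members and below 1 for 25, against 15.1% and 15.6% of all features and 24.0% and 26.4% of those with similar read numbers. Among members named below, the intervals of Snrpd3, Snrpc, Prpf4, Prpf19, Sf3a3, Rbm38, Rbm5, Rbm10, Rbm12b2, Rbm19, Hnrnpll, Hnrnpr and Hnrnpab excluded 1 with the reads as they stand but included it when each 2 reads were counted as 1. The intervals in brackets below use the reads as they stand, cover counting error only and do not include variation between cultures.

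**Figure D2:**
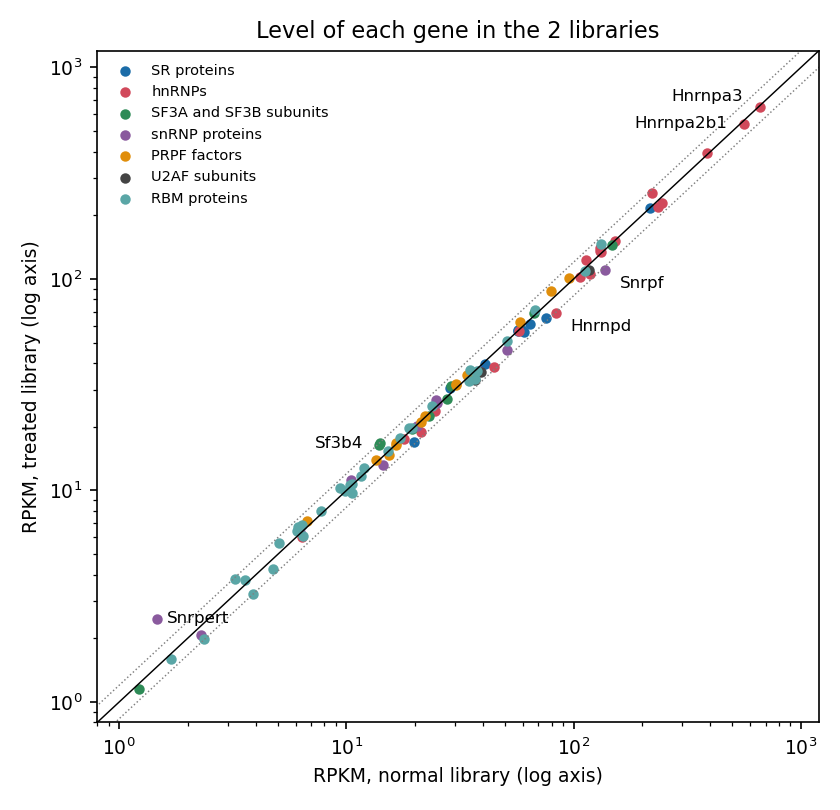
Level of each of the 99 members in RPKM in the normal (x axis) and treated library (y axis), both axes logarithmic and points coloured by class. The solid line marks equal levels and the dotted lines 1.2-fold. Nearly all points lie between the dotted lines, from Sf3b5 at 1.23 and 1.16 RPKM up to Hnrnpa3 at 660.9 and 651.1 RPKM.

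The promoters of these genes were rich in CG dinucleotides, and 10.8% held TATAAA. The 250 bases before the annotated start are printed here for the members with the lowest and the highest log2 differences, to show what stands upstream of the genes at either end of the range. The choice was limited to members of at least 5 RPKM with a single start in the table, and the sequences and positions are those of RefSeq on GRCm38.p6, an older build than the GRCm39 of the deposited table. The lowest were Snrpf at chr10:93589659-93589908 (minus strand), Hnrnpd at chr5:99978939-99979188 (minus strand) and Srsf2 at chr11:116853095-116853344 (minus strand). The highest were Prpf6 at chr2:181601069-181601318 (plus strand), Rbm12 at chr2:156111966-156112215 (minus strand) and Sf3b3 at chr8:110846804-110847053 (minus strand). Each runs in the direction of transcription and ends at the base before the start, and capitals mark matches on either strand, overlapping ones included, to 8 motifs. The TATA box was searched as TATAAA and the CCAAT box, which NF-Y binds, as CCAAT. The GC box of SP factors was searched as GGGCGG and the core motif of ETS factors as CCGGAA. For the factor NRF1 the letters were GCGCATG and for the factor YY1 they were GCCATNTT. The E-box was searched as CACGTG and the core motif of CREB and ATF factors as TGACGT.

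Snrpf: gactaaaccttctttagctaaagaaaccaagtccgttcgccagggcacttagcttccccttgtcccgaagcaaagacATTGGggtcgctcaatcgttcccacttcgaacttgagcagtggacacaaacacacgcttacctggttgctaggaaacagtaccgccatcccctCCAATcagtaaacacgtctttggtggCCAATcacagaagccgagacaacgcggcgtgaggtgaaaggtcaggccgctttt

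Hnrnpd: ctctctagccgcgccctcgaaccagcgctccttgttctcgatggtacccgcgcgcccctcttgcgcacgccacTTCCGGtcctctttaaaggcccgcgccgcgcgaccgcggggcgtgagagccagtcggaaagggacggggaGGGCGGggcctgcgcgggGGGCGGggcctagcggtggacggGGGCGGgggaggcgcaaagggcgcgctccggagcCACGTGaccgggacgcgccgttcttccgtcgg

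Srsf2: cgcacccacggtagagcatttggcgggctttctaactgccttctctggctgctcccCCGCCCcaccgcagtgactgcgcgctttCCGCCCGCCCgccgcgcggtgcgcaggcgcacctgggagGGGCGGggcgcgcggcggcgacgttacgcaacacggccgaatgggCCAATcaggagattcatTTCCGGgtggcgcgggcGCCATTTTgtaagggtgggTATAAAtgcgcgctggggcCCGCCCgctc

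Prpf6: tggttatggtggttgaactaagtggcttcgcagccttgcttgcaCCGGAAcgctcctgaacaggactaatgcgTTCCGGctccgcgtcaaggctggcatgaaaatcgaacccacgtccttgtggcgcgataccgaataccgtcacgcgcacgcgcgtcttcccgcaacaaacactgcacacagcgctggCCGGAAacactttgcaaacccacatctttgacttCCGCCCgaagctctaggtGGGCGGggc

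Rbm12: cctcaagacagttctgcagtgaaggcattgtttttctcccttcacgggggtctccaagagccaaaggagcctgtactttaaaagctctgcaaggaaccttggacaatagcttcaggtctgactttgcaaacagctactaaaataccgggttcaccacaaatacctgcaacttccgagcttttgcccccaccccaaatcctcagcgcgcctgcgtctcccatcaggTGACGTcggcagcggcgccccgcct

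Sf3b3: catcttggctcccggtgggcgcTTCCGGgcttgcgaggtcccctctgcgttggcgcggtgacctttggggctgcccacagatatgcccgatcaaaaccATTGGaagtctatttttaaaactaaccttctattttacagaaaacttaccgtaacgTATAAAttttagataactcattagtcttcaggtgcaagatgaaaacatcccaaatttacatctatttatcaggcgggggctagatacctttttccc

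A promoter was matched by symbol for 83 of the 99 members. CCGGAA stood in 39.8% of these 83 windows, against 23.8% of 9130 windows of genes of at least 1 RPKM and 12.2% of all 27025. TGACGT stood in 19.3% against 10.7% and 6.56%, CCAAT in 47.0% against 37.3% and 34.5%, and GCGCATG in 3.61% against 6.27% and 3.32%. For GGGCGG the shares were 56.6%, 60.0% and 32.9%, and for TATAAA 10.8%, 5.81% and 13.0%. GCCATNTT stood in 4.82%, 4.76% and 3.93% of the 3 sets and CACGTG in 8.43%, 8.60% and 6.05%. The median number of CG dinucleotides was 19 in the members' windows, 16 in those of expressed genes and 6 in all. The 6 printed windows differ among themselves. That of Srsf2 held 5 of the 8 motifs and 33 CG dinucleotides. That of Hnrnpd held the GC box, the ETS motif and the E-box with 39 CG dinucleotides, and that of Snrpf the CCAAT box alone with 14. At the other end of the range, Prpf6 held the GC box and the ETS motif with 24, Sf3b3 held the TATA box, the CCAAT box and the ETS motif with 11, and Rbm12 the CREB and ATF motif alone with 11. No motif was held by all 3 windows at either end. A match is a description of letters and not a bound site.

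Among SR proteins, most genes were lower in the treated library by small amounts. Of 10 measured members, 8 had a log2 difference below 0 and 2 above it, with a median of -0.05, and none passed 1.2-fold. The lowest was Srsf2, whose protein activates exons through C-rich and G-rich motifs, at 19.9 RPKM in normal and 16.9 in treated cells, a ratio of 0.848 (0.801 to 0.898). Srsf4 stood at 76.0 and 65.5 RPKM, a ratio of 0.862 (0.840 to 0.886). Srsf10, which acts as a repressor when dephosphorylated, stood at 60.2 and 56.0 RPKM, a ratio of 0.931. These 3 genes had intervals below 1, as did Srsf1 and Srsf11. Intervals lay below 1 for 22.3% of all features and 32.7% of those with similar read numbers to the members. The SR genes had more reads than those, with a median of 23084.5 over both libraries. Srsf1, the founding member of the family, had 64.4 and 61.4 RPKM, a ratio of 0.954, and Srsf11 a ratio of 0.968. The most abundant, Srsf5, did not differ beyond counting error, with 216.3 and 216.1 RPKM and a ratio of 0.999 (0.985 to 1.01). Srsf6, Srsf7 and Srsf9 stood at 0.994, 1.00 and 0.969, with intervals that included 1. Srsf3, the smallest SR protein, was above 1, at 28.5 and 30.6 RPKM, a ratio of 1.07 (1.05 to 1.10), and was the 1 member of the class with an interval above 1.

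Exons of Srsf4 and Srsf2 overlap other genes on the opposite strand. Gm12992 covers 43.0% of the Srsf4 length and had a ratio of 0.859, and Mettl23 and Mfsd11 cover 25.3% of Srsf2 and had ratios of 0.891 and 0.852. No source used here says that counting took strand into account, and the reads of such pairs cannot be told apart without it. Without members that overlap the opposite strand, the median of the remaining 6 SR genes was -0.0053. In all, 35 of the 99 members have such an overlap.

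**Figure D3:**
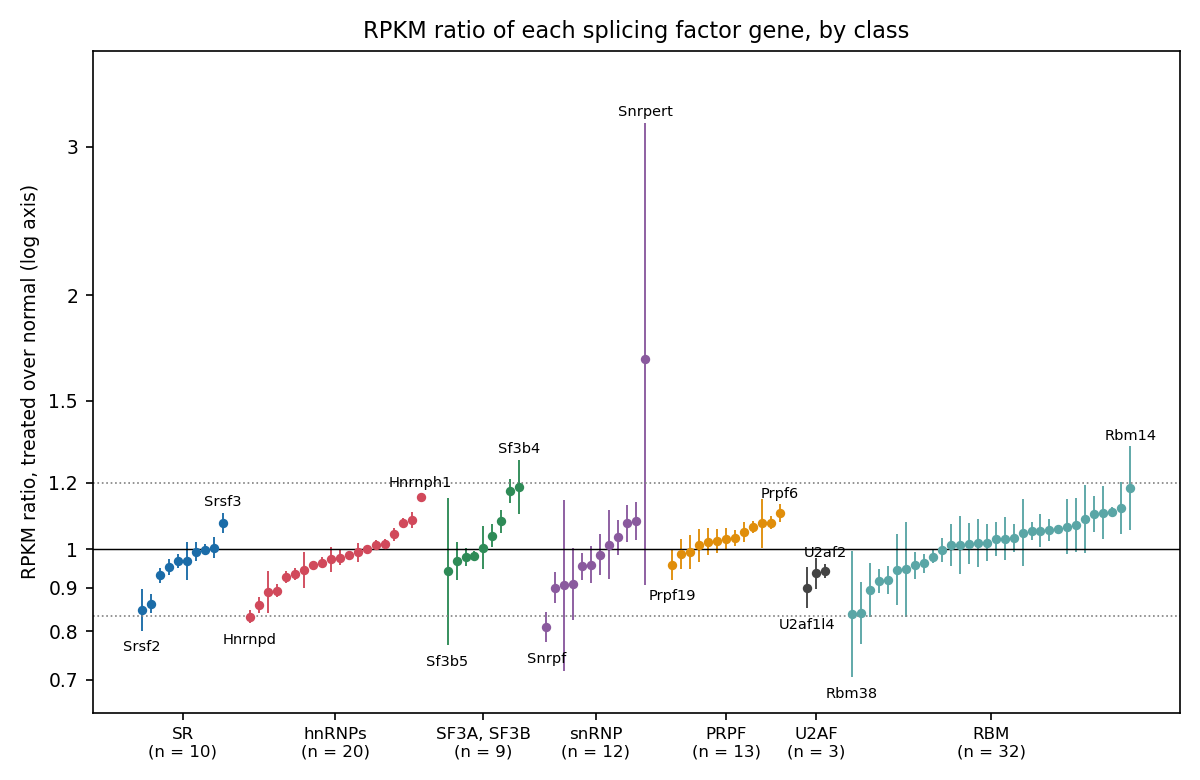
Ratio of treated to normal RPKM (log axis) for each of the 99 members, grouped by class and sorted within it. Bars are exact 95% intervals from read counts, the solid line marks a ratio of 1 and dotted lines 1.2-fold. The lowest and highest ratio of each class are named, and the bar of Snrpert, from 0.908 to 3.21, is the widest.

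The hnRNP genes made up most of the pool and also leaned to lower values. The 20 genes held 55.6% of the members' summed RPKM in normal and 55.5% in treated cells, 13 had a log2 difference below 0 and 7 above it, and the median was -0.04. Intervals lay below 1 for 11 and above 1 for 5, where 32.7% and 29.7% did among features with similar numbers of reads to the members. The hnRNP genes had more reads than those, with a median of 54882 over both libraries. Hnrnpd, which encodes AUF1, a protein that binds AU-rich elements and controls mRNA decay, was the lowest. It lies at chr5:100103794-100126797 on the minus strand of GRCm39 and stood at 83.5 RPKM in normal and 69.4 in treated cells, a ratio of 0.831 (0.817 to 0.846). Its paralog Hnrnpdl, 54638 bases away on the same strand of chromosome 5, was lower as well, with 118.0 and 105.3 RPKM and a ratio of 0.893 (0.877 to 0.909). The antisense gene Gm17092, which covers 6.32% of Hnrnpd, had a ratio of 0.796. Hnrnpul1 was the next lowest at 44.6 and 38.3 RPKM, a ratio of 0.859 (0.840 to 0.878), while its paralog Hnrnpul2 stood at 132.4 and 134.0 RPKM, a ratio of 1.01. The scaffold protein gene Hnrnpu stood at 151.6 and 151.9 RPKM, a ratio of 1.00.

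The A and B family, which includes the classical antagonists of SR proteins at splice sites, was lower in 4 of 5 genes, with ratios down to 0.891. Hnrnpa3 and Hnrnpa2b1 were the 2 most abundant of all members. Hnrnpa3 had 660.9 and 651.1 RPKM, a ratio of 0.985 (0.978 to 0.992), and Hnrnpa2b1 562.4 and 539.5 RPKM, a ratio of 0.959 (0.953 to 0.966). Hnrnpa1 stood at 236.0 and 218.7 RPKM, a ratio of 0.927, and Hnrnpa0 at 21.2 and 18.9 RPKM, a ratio of 0.891. Hnrnpab was slightly above 1, at 387.8 and 393.3 RPKM, with an interval of 1.00 to 1.03 that included 1 with each 2 reads counted as 1. The level of Srsf1 relative to Hnrnpa1, a pair known to compete over splice site choice, was 0.273 in normal and 0.281 in treated cells. Sequence copies limit what can be said of the family. Of the distinct windows of 50 bases, 26.9% in Hnrnpa3 transcripts and 28.2% in Hnrnpa1 transcripts also occur in other genes. The gene that shared the most windows was a processed pseudogene for each, Gm5641 for Hnrnpa3 and Gm10052 for Hnrnpa1.

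Within the H and F family the members diverged. These proteins bind runs of G near splice sites. Hnrnph1 had the highest ratio of all hnRNP genes, with 220.4 RPKM in normal and 254.2 in treated cells, a ratio of 1.15 (1.14 to 1.17). Hnrnph3 stood at 113.0 and 122.4 RPKM, a ratio of 1.08 (1.06 to 1.11). Hnrnph2 was flat at 57.4 and 56.9 RPKM, a ratio of 0.991, and Hnrnpf was lower, at 245.3 and 229.4 RPKM, a ratio of 0.935 (0.921 to 0.950). The level of Hnrnph1 relative to Hnrnpf was 0.899 in normal and 1.11 in treated cells. For Hnrnpf, 43.2% of the windows of 50 bases also occur in other genes. Of the remaining hnRNP genes, Hnrnpm, whose protein is a splicing repressor and enhancer, stood at 130.8 and 140.6 RPKM, a ratio of 1.07 (1.06 to 1.09), and Hnrnpc, which binds uridine tracts and keeps cryptic exons out, at 130.2 and 135.6 RPKM, a ratio of 1.04. Hnrnpk had a ratio of 0.964, Hnrnpr of 0.977, Hnrnpl of 0.973 and its paralog Hnrnpll of 0.944.

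Genes of the Sm ring, the core shared by most spliceosomal snRNPs, stood below a ratio of 1 for 6 of its 7 subunits. The exception was Snrpd2, with 24.7 RPKM in normal and 26.6 in treated cells, a ratio of 1.08 (1.03 to 1.14). Snrpf (chr10:93418891-93425568 on GRCm39, minus strand) was the lowest of all 99 members at 137.2 and 110.9 RPKM, a ratio of 0.808 (0.776 to 0.842). Snrpd1 stood at 51.1 and 46.1 RPKM, a ratio of 0.901 (0.863 to 0.939), and Snrpd3 at 38.5 and 36.8 RPKM, a ratio of 0.955. Those 3 had intervals below 1, as did 22.3% of all features and 32.7% of those with similar read numbers to the members. The intervals of Snrpb at 0.959, Snrpe at 0.910 and Snrpg at 0.907 included 1, the last with 158 and 142 reads. The summed level of the 7 genes was 306.1 RPKM in normal and 271.9 in treated cells, a ratio of 0.888, and Snrpf made up much of it. Reads at Snrpf cannot be assigned with certainty, since 85.4% of its 861 bases are covered by exons of 4933408J17Rik and Ccdc38 on the opposite strand, with ratios of 0.703 and 0.869. Subunits of the ring are needed in equal number, but their RPKM ranged from 2.07 to 137.2 and are not compared between genes here, since lengths of merged exons and shared sequence differ.

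The member genes of proteins particular to the U1 and U2 particles were nearer to equal. Snrpa, which encodes a protein of U1, stood at 25.1 and 26.0 RPKM, a ratio of 1.03, and Snrpc, also of U1, at 10.5 and 11.2 RPKM, a ratio of 1.07 (1.02 to 1.13). The U2 partners Snrpa1 and Snrpb2 had ratios of 1.01 and 0.986. Only the interval of Snrpc excluded 1 among these 4 genes. Snrnp70, a U1 protein gene outside the name rule, stood lower, at 121.0 and 115.2 RPKM, a ratio of 0.952 (0.938 to 0.965). Snrpert, the 1 member past 1.2-fold in the upward direction, had 1.46 and 2.46 RPKM, and its ratio of 1.68 had an interval of 0.908 to 3.21. It shares 55.7% of its windows with other genes, mainly Snrpe.

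The SF3A and SF3B complexes, which bind U2 to the branch point of the intron, held the 2 highest ratios among members of at least 5 RPKM. Sf3b4 stood at 14.1 RPKM in normal and 16.7 in treated cells, a ratio of 1.19 (1.10 to 1.28), and Sf3b3 at 13.9 and 16.4 RPKM, a ratio of 1.17 (1.14 to 1.21). Both are partners of Sf3b1, the largest subunit and a frequent target of mutation in human blood cancers, which stood at 27.7 and 27.2 RPKM, a ratio of 0.979 (0.956 to 1.00). The intervals of Sf3b3 and Sf3b4 therefore did not overlap that of Sf3b1. Sf3b2, the most abundant subunit, had 146.9 and 144.1 RPKM, a ratio of 0.981 (0.968 to 0.994). Sf3b5 at 0.942, with 208 and 194 reads, and Sf3b6 at 0.968 had intervals that included 1. In the SF3A complex, Sf3a1 was higher at 28.8 and 31.1 RPKM, a ratio of 1.08 (1.05 to 1.11), and Sf3a3 at 66.7 and 69.2 RPKM, a ratio of 1.04 (1.01 to 1.07), whereas Sf3a2 stood at 1.00. Neither Sf3b3 (chr8:111536871-111573419) nor Sf3b4 (chr3:96079648-96084880) passed 1.2-fold. Of the Sf3b4 windows of 50 bases, 43.6% also occur in the processed pseudogene Gm7935, which had 16 and 18 reads.

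**Figure D4:**
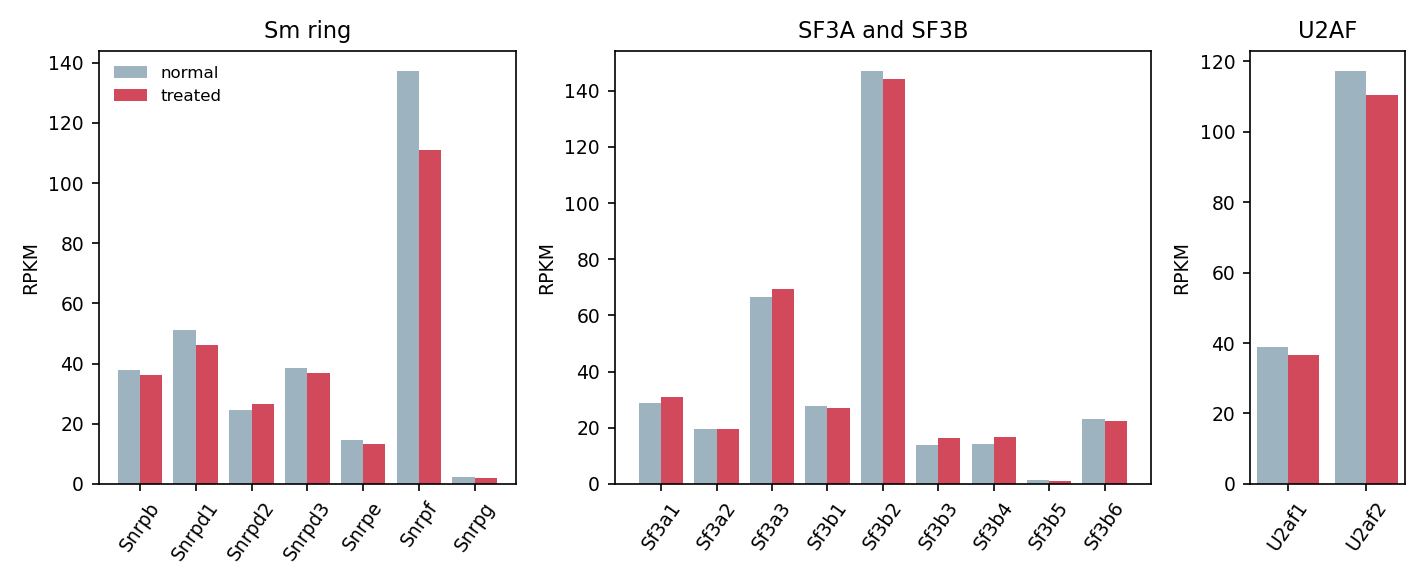
RPKM (bars from 0) in the normal and treated library for the subunits of the Sm ring, of SF3A and SF3B, and of U2AF, with a separate axis for each. Of the Sm ring, 6 of 7 bars are lower in the treated library, Snrpf the most. Sf3b3 and Sf3b4 are higher, and U2af1 and U2af2, the U2AF genes drawn, are lower.

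All 3 U2AF genes were lower in the treated library. U2AF is the dimer that recognises the end of the intron. Its large subunit gene U2af2 stood at 117.2 and 110.5 RPKM, a ratio of 0.943 (0.925 to 0.962), and the small subunit gene U2af1 at 39.0 and 36.5 RPKM, a ratio of 0.937 (0.898 to 0.977). The 2 subunits stood in nearly the same proportion, with U2af1 at 0.333 of the U2af2 level in normal and 0.330 in treated cells. U2af1l4, a paralog of the small subunit, stood at 36.8 and 33.2 RPKM, a ratio of 0.901 (0.852 to 0.952), but 65.6% of its length is shared with the gene Gm49396 on the same strand, which had a ratio of 0.920. All 3 intervals stayed below 1 with each 2 reads counted as 1. Such intervals lay below 1 for 15.6% of all features and 26.4% of those with similar read numbers to the members.

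The PRPF genes leaned the other way. Of 13, 10 had a log2 difference above 0, the median was 0.04, and their summed level went from 439.6 to 462.0 RPKM, a ratio of 1.05. All 5 that encode proteins of the U4/U6.U5 tri-snRNP, the particle that brings the catalytic core to the intron, were above 1. Prpf6, a bridge within that particle, was the highest at 79.1 and 87.4 RPKM, a ratio of 1.10 (1.08 to 1.13). Prpf8, the scaffold of the active site, stood at 30.4 and 31.9 RPKM, a ratio of 1.05 (1.02 to 1.08), and Prpf4 at 6.69 and 7.19 RPKM, a ratio of 1.07 (1.00 to 1.15). Prpf31 at 1.03 and Prpf3 at 1.02 had intervals that included 1. Outside the name rule, other genes of the tri-snRNP went both ways, most of them below 1. Eftud2, Ddx23 and Snrnp27 stood at 0.963, 0.958 and 0.937, with intervals below 1. Snrnp40, Usp39, Snu13, Sart1 and Ppih stood at 0.913, 0.915, 0.950, 0.987 and 1.05, with intervals that included 1. Snrnp200 stood at 1.02, with an interval above 1. The genes of the ring on U6, Lsm2 to Lsm8, were all below 1, with ratios from 0.807 to 0.970. The intervals of Lsm2, Lsm3, Lsm4 and Lsm6 lay below 1. Prpf4b, a kinase that phosphorylates spliceosome proteins, stood at 58.3 and 62.7 RPKM, a ratio of 1.08 (1.06 to 1.10), and Prpf38b at 95.3 and 101.3 RPKM, a ratio of 1.06 (1.05 to 1.08). The lowest PRPF gene was Prpf19, a ubiquitin ligase of the activated spliceosome, at 15.3 and 14.7 RPKM, a ratio of 0.958 (0.920 to 0.998). The U1-associated Prpf40b and Prpf39 stood at 0.993 and 1.02, Prpf38a at 1.01 and the second-step factor Prpf18 at 0.987.

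The RBM genes are united by name and an RNA-binding motif more than by function, and not all act in splicing. Of 32 measured, 21 had a log2 difference above 0 and 11 below it, with a median of 0.03 and none past 1.2-fold. Of the 9 best known in splicing, 6 were above 1. Rbm39, a U2AF-related cofactor that is degraded by sulfonamide drugs, was the most abundant RBM gene at 132.0 RPKM in normal and 146.2 in treated cells, a ratio of 1.11 (1.09 to 1.12). Rbm25 stood at 67.7 and 71.6 RPKM, a ratio of 1.06 (1.04 to 1.07), and Rbm6 at 18.8 and 19.7 RPKM, a ratio of 1.05. Rbm17, Rbm10 and Rbm5, which influence exon skipping, were slightly lower, with ratios of 0.963, 0.957 and 0.980. Rbm22, a protein of the catalytic core, stood at 1.01, and the paralogs Rbm4 and Rbm4b at 1.06 and 1.03.

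Among the other RBM genes, the highest ratio was that of Rbm14, a paraspeckle protein gene, with 3.24 and 3.83 RPKM, a ratio of 1.18 (1.05 to 1.32). The lowest were Rbm38, a regulator of mRNA stability, with 2.37 and 1.98 RPKM, a ratio of 0.838 (0.706 to 0.995), and Rbm47, a cofactor of RNA editing, with 3.86 and 3.25 RPKM, a ratio of 0.840 (0.772 to 0.914). On the scale of log2 of RPKM plus 0.5 Rbm47 was the lower of the 2, at -0.22 against -0.21. Rbm15, which guides methylation of adenosine in RNA, stood at 4.75 and 4.25 RPKM, a ratio of 0.894 (0.831 to 0.962), and its relative Rbm15b at 1.02. Rbm3, induced by mild cold, was lower at 36.8 and 33.8 RPKM, a ratio of 0.918 (0.889 to 0.949). Genes tied to RNA exosome targeting, Rbm7, Rbm26 and Rbm27, had ratios of 1.03, 1.10 and 1.03, and those tied to ribosome biogenesis, Rbm19, Rbm28 and Rbm34, of 1.10, 1.05 and 1.02. The gene of the exon junction protein Rbm8a stood at 50.9 and 50.8 RPKM, a ratio of 0.997. The other members of the class with at least 1 RPKM had ratios from 0.920 for Rbm33 to 1.12 for Rbm12. Rbm12b1 and Rbm12b2, neighbours on chromosome 4, share 60.8% and 55.1% of their windows with other genes, mainly each other, so their ratios of 1.09 and 1.05 are not independent.

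Several members are neighbours in the genome (GRCm39). Within 100000 bases of each other there were 7 adjacent pairs, and in 5 of them both genes differed in the same direction. Such a share was not computed for pairs of all features, of which 50.7% had a ratio above 1. Pairs that share a gene or sequence are not independent, so nothing is read from the count. The intervals of Rbm4, Rbm4b and Rbm12b1 included 1. Rbm4b, Rbm4 and Rbm14 lie in a row on chromosome 19 between 4806525 and 4861662, all above 1, although Gm21992, a gene that spans exons of both Rbm4 and Rbm14 on the same strand, had a ratio of 0.968. Rbm12 and Rbm39 lie 35260 bases apart on chromosome 2, both above 1 by a similar amount. Hnrnpd and Hnrnpdl are the pair below 1. Rbm5 and Rbm6, 2562 bases apart on chromosome 9 on the same strand, lay on either side of 1, and so did U2af1l4 and Rbm42 on chromosome 7. For Rbm42, 75.4% of the length is shared with Gm21982 on the same strand.

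Splicing genes outside the name rule were also close to equal. Of 114 measured of a textbook list of core and regulatory splicing genes, 49 had a log2 difference above 0 and 65 below it, with a median of -0.02. Of the 114, 5 passed 1.2-fold, or 4.39%, against 17.5% of all features and 8.93% of those with similar read numbers to the members. Intervals lay below 1 for 43 of them (37.7%) and above 1 for 24 (21.1%). Those shares were 22.3% and 22% over all features, and 32.7% and 29.7% among those with similar read numbers. The lowest was Snrnp25, which encodes a protein of the minor spliceosome, at 10.8 RPKM in normal and 7.36 in treated cells, a ratio of 0.681 (0.591 to 0.783). Bcas2, a partner of the PRPF19 protein, stood at 16.9 and 13.9 RPKM, a ratio of 0.821 (0.779 to 0.864), and Lsm2, of the ring on U6, at 2.80 and 2.26 RPKM, a ratio of 0.807, which with the pseudocount was inside 1.2-fold. At the other end were the cyclophilin gene Ppie at 5.52 and 6.82 RPKM, a ratio of 1.24 (1.08 to 1.41), Esrp2, an epithelial splicing regulator, at 1.37 and 1.78 RPKM, a ratio of 1.29 (1.10 to 1.53), and Celf3 at 9.02 and 11.1 RPKM, a ratio of 1.23. Exons of those 3 overlap genes on the opposite strand, and none of the 85 members of this list without such an overlap passed 1.2-fold upward.

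Genes that act on splicing factors were mostly within 1.2-fold. Of 13 kinase and phosphatase genes 7 were above 0 and none passed 1.2-fold, with a median of 0.01. Dyrk1b was the lowest at 3.49 and 2.95 RPKM, a ratio of 0.847 (0.732 to 0.979). Srpk2, a kinase of SR proteins, stood at 20.9 and 18.2 RPKM, a ratio of 0.871 (0.849 to 0.894), while its relative Srpk1 stood at 1.03 and the nuclear kinases Clk1, Clk2 and Clk3 at 1.03, 1.03 and 0.975. The phosphatase-targeting gene Ppp1r10 was the highest at 9.07 and 11.0 RPKM, a ratio of 1.21 (1.14 to 1.28), but with the pseudocount its log2 difference of 0.26 was just inside the limit. Of 17 genes of the exon junction complex and of nonsense-mediated decay, which removes transcripts with early stop codons, 14 were above 0 with a median of 0.03. Upf3a was the lowest at 22.9 and 19.6 RPKM, a ratio of 0.858, and Smg6 the highest at 11.7 and 13.0 RPKM, a ratio of 1.11. Of 21 genes of snRNP assembly and import 12 were above 0, with a median of 0.04, 2 past 1.2-fold upward and 1 downward. That share of 14.3% was near the 17.5% of all features, so nothing is read from the count. Gemin5 and Gemin2, whose proteins load Sm rings onto snRNAs with SMN, had ratios of 1.27 (1.16 to 1.39) and 1.23, and Gemin8 of 0.763 (0.660 to 0.882).

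The RNA partners of these proteins were hardly captured. Of 11 features named as spliceosomal or U7 snRNA genes none had more than 6 reads in either library, so their levels cannot be compared in these mRNA libraries. A list of 12 long or nuclear noncoding RNAs held some that are used as signs of RNA quality or nuclear content. All 7 measured were higher in the treated library, with a median log2 difference of 0.29 against 0.0023 for the members. Among the 7, Gas5, Snhg1 and Snhg12 are instead host genes of small nucleolar RNAs. Of the 7, 4 passed 1.2-fold, against 8.68% of all features in that direction. They were Snhg1 at a ratio of 1.40, Miat at 1.36, Neat1, and Rn7sk, which rests on 12 and 38 reads. The other 5 on the list had a mean below 1 RPKM. Xist had 63 and 46 reads, Meg3 14 and 12, Rpph1 6 and 0, Kcnq1ot1 936 and 1148, and Rmrp none. Malat1, a nuclear RNA that concentrates with splicing factors in speckles, stood at 305.6 and 318.1 RPKM, a ratio of 1.04 (1.03 to 1.05), and Neat1, the scaffold of paraspeckles, at 14.6 and 18.05 RPKM, a ratio of 1.23 (1.21 to 1.26). The part of RNA quality in the members' ratios was not tested. Among the members, Spearman's correlation of the log2 difference was -0.07 with the GC content of the longest transcript, 0.16 with feature length and -0.11 with mean RPKM over 99 genes, given as a description of genes that share 2 libraries.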

How the data were processed

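RNA from 2 MIN6 cultures was made into mRNA libraries with a stranded kit for Illumina sequencing, per the labels' protocols. Values were deposited as RPKM, reads scaled by feature length and library total by the authors, in 1 table with exon coordinates, per the file headers. Trimmomatic 0.36, edgeR 3.12.1 and the build GRCm39 are named in the submitters' processing notes. No source used here gives the aligner, counter, annotation or use of strand.

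RPKM was multiplied by feature length and a factor common to each library, which gave whole reads within 0.01 for 100% of values. Intervals of RPKM ratios are exact 95% Clopper-Pearson intervals of the treated share of these reads and cover counting error only. The reads carry no molecular identifiers, and no source used here says whether duplicates were removed. Copies of 1 molecule may thus be counted as separate. Differences are of log2 of RPKM plus 0.5, which understates those of low genes, among features of mean RPKM at least 1, and a difference past 1.2-fold was counted. Features of similar level are those of at least 300 bases between the 5th and 95th percentile of the members, 3.401 to 228.3 RPKM. Features with similar read numbers lie between their 25th and 75th percentiles. With 1 library per group no p-value was computed.

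Members came from the name rule, and members and lists were chosen with earlier results of these data known. Named genes were those past 1.2-fold, the 10 of highest level, the extremes of each class, and the SR, SF3, U2AF and Snrp genes. The 3 highest and lowest of the other splicing genes were also named. Of the smaller lists only some of the highest and lowest were named. Others were named after their values were seen, to show families, and some members are not reported here by name. Shared windows of 50 bases were counted over GENCODE M21 transcripts (GRCm38), and promoters are those of RefSeq GRCm38.p6. The NRF1 motif was shortened after a longer form had been searched. Qk and Mbnl3 were not matched by symbol. Steps were tested on simulated data and run with Python 3.11.15, numpy 2.4.6, pandas 2.3.3 and scipy 1.17.1.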

Additional observations from a re-analysis of the deposited data

How the results depend on the processing

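The median log2 difference of the 99 members stayed within -0.0075 to 0.0098 under the alternative pseudocounts, filters, scalings and exclusions, on either side of 0, and that of the SF3A and SF3B genes within -0.03 to 0.03. The medians of the other classes kept their sign, and the SR median went from -0.05 to -0.0053 without genes overlapping the opposite strand. Counts past 1.2-fold were small and moved. Of the 2 lower members (1 hnRNP and 1 snRNP gene), 1 (Snrpf) was left with a pseudocount of 1 and with equal totals outside the 10 features of most reads, so the hnRNP count was 0 in both, and 0 were left without opposite-strand overlaps or at 1.3-, 1.5- and 2-fold, for either class. The 1 higher member, a snRNP gene copy, became 0 from a mean of 5 RPKM, without features under 300 bases and at 2-fold, and 2 with no filter, the other being the RBM gene Rbm8a2, so the RBM count went from 0 to 1. Of the other splicing genes, the 3 higher became 1 with a pseudocount of 1 and 0 without opposite-strand overlaps or at 1.3-, 1.5- and 2-fold, and the 2 lower became 1 at 1.3-fold and 0 at 1.5- and 2-fold. The background share of 17.5% was 8.93% among features with similar read numbers. Leaving out the 3 members overlapped over at least 50% on the same strand, an alternative chosen after seeing the data, left 1 higher and 2 lower. With each 2 reads counted as 1, members with an interval above 1 went from 27 to 20 and below 1 from 32 to 25. The interval of Hnrnpab included 1 under a median-of-ratios scaling (1.007) and under a trimmed mean (1.009). Scalings shifted log2 differences by -0.0099 to 0.0075. No paired analysis was possible because there was 1 library per group, and for the same reason no library could be left out. Genes with few reads, such as Snrpg, Sf3b5 and Snrpert, are limited by depth.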

Other observations

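Of the 8 features that the name rule left out, Rbm3os had 361 and 327 reads in the normal and treated libraries, and Snrpn, an imprinted gene that encodes an Sm B protein, stood at 15.1 and 16.7 RPKM, a ratio of 1.10. The pseudogenes had few reads. Rbm3-ps had 26 and 6, Hnrnpa1l2-ps 20 and 2, Hnrnpa1l2-ps2 62 and 64, Srsf3-ps 96 and 92, Rbm6-ps1 52 and 52, and Rbm6-ps2 2 and 0. The parent gene Rbm3 had 7626 and 6935 reads. Reads of such copies can be exchanged with those of their parents, and no source used here says how reads with several matches were treated.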
